A study of Mus musculus with 4 samples.

Results

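Cell proliferation genes encode the proteins a cell uses to copy its DNA and to divide. The 45 genes described here are a list of cyclins and their kinase, replication factors and mitotic proteins. Each was read through the probe sets whose single gene symbol in the platform annotation is that gene, and where a gene had several, the probe set with the highest mean signal over the 4 arrays was used. Of the 45 genes, out of 18193 genes with such a probe set, 44 were measured. Ccnb1, cyclin B1, had no probe set with a single symbol and was not analysed here. A gene was compared where its mean signal over the 4 arrays reached a floor of 17.3, the median of all non-control signals, and signals under the floor were raised to it. This held for 39 of the 45 genes, and for 11598 of all genes.

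Dividing cells commit to a cycle through the D and E cyclins, load and fire the MCM helicase to copy DNA, and then build a spindle under the control of Cdk1, the Aurora kinases and Plk1. Transcription of this programme runs in waves: E2F factors serve genes of DNA synthesis, while the DREAM and MuvB complexes act on mitotic genes through a short element called CHR. In adult muscle the fibres themselves do not divide. In dystrophic muscle the dividing cells include satellite cells, the stem cells that rebuild fibres, and also fibroblasts, endothelial cells and white blood cells.

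The tissue was tibialis anterior, which is a fast-twitch shin muscle, and each of 4 groups was hybridised to 1 Affymetrix Mouse Genome 430 2.0 array. The groups were mdx mice at 1 month, mdx mice at 3 months, mdx/MMP-2-/- mice at 1 month and mdx/MMP-2-/- mice at 3 months, all on strain C57BL/6J. All 4 groups therefore lack dystrophin, the defect of Duchenne muscular dystrophy, and no array of healthy muscle was analysed here. The mdx/MMP-2-/- mice, called mdx/MMP-2 null from here on, also lack the gelatinase matrix metalloproteinase 2. No label tells if animals were pooled, and no group has a replicate. No difference between 2 arrays has a test, and "higher" and "lower" describe these arrays.

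Mmp2 had scaled signals of 965 and 827 in the mdx arrays at 1 and 3 months, and of 20.7 and 38.1 in the mdx/MMP-2 null arrays. The 9 markers of mature fast muscle, among them Acta1, Ckm and Myh4, gave scaled signals from 11263 to 15412. They differed between any of the 4 arrays by at most 0.2 on the log2 scale. Quantile scaling gives every array the same set of values and leaves little room for a difference among the brightest genes. This closeness is therefore no check of fibre content. The deposited signals had 2% trimmed means of 91.3 and 90.4 in the mdx arrays and 97.5 and 122 in the mdx/MMP-2 null arrays at 1 and 3 months, so arrays were quantile scaled before comparison. Control probe sets at both ends of the Actb transcript, which read RNA degradation, gave 3'/5' ratios of 1.19 and 1.05 in the younger arrays and of 2.36 and 2.09 in the older ones. Gapdh ratios ran from 0.85 to 0.936.

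Promoter sequences of 35 of the 45 genes were found in RefSeq (build GRCm38.p6), as windows from 250 bases before to 50 bases after the start of transcription. They are shown because the genes of mitosis and those of DNA replication differed in their array values, and because the textbook elements of these waves can be read in them. The motifs searched, on both strands, were the CCAAT box (CCAAT), CHR (TTTGAA or TTCGAA) and an E2F site (TTTGGCGC, TTTGCCGC, TTTCGCGC or TTTCCCGC). E2F matches may overlap each other. Among the 19 promoters of mitosis genes found, 16 held both a CCAAT box and CHR letters, or 84.2%, while 5.45% of 9371 promoters of compared genes and 7.7% of 27025 promoters in all held both. None of the 19 held the E2F letters. Of the 11 promoters of replication genes found, 5 held the E2F letters, or 45.5%, against 4.16% of the promoters of compared genes, and 2 held both a CCAAT box and CHR letters. A match is a run of letters and was not tested for binding.

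In the following promoters the 150 bases before the start are given 5′ to 3′ on the gene's strand, with motif matches in capitals. The genes are Mki67 (minus strand, chr7:135716380-135716529), Top2a (minus, chr11:99024190-99024339), Cdc20 (minus, chr4:118437344-118437493), Ube2c (plus, chr2:164769779-164769928) and Cdk1 (minus, chr10:69352913-69353062). All 5 had lower signals at 3 months than at 1 month in both genotypes, and each stretch holds both CCAAT and CHR letters. They are examples, and letters and age differences do not go together in every member. Birc5, 1.64-fold lower with age in mdx, held none of the motifs in the searched window. Aurka and Plk1 held both CCAAT and CHR letters in that window and were not lower with age in mdx. A link of letters to array values was not tested. Top2a has 4 CCAAT boxes and 3 CHR matches in it. Cdk1 also holds 1 E2F match.
Mki67: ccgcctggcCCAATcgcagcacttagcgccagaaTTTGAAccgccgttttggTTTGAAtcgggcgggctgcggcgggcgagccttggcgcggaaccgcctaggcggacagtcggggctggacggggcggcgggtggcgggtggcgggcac
Top2a: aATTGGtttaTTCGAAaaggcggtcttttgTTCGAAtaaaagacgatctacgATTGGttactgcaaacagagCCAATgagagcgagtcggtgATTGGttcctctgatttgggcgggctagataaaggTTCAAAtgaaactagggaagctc
Cdc20: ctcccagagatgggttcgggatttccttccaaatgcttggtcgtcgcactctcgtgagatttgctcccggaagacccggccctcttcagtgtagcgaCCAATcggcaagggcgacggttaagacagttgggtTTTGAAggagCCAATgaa
Ube2c: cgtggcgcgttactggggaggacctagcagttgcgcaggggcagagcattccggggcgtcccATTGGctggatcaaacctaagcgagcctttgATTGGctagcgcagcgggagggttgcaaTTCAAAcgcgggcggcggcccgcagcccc
Cdk1: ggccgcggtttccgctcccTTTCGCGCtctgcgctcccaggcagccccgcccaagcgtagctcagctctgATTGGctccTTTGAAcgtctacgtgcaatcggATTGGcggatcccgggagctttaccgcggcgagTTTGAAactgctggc

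A pair of replication genes is set beside them. Mcm5 (plus strand, chr8:75109359-75109508) and Mcm6 (minus strand, chr1:128359706-128359855) encode subunits of the helicase. Both had higher signals in mdx/MMP-2 null than in mdx at 3 months, as did Mki67, Top2a, Cdc20, Ube2c and Cdk1. Both were also lower with age in mdx, with log2 differences of -0.53 and -0.72. In mdx/MMP-2 null both were higher with age (0.69 and 0.24). Each holds 2 CCAAT boxes and no CHR letters in this stretch, and E2F letters are marked in both.
Mcm5: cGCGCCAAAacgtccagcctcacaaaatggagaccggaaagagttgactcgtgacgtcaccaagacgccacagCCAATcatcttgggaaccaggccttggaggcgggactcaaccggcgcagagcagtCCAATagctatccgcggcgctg
Mcm6: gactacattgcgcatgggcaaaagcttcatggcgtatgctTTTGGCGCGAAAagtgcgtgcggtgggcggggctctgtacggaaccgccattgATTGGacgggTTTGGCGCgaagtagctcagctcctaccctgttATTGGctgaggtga

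**Figure D1:**
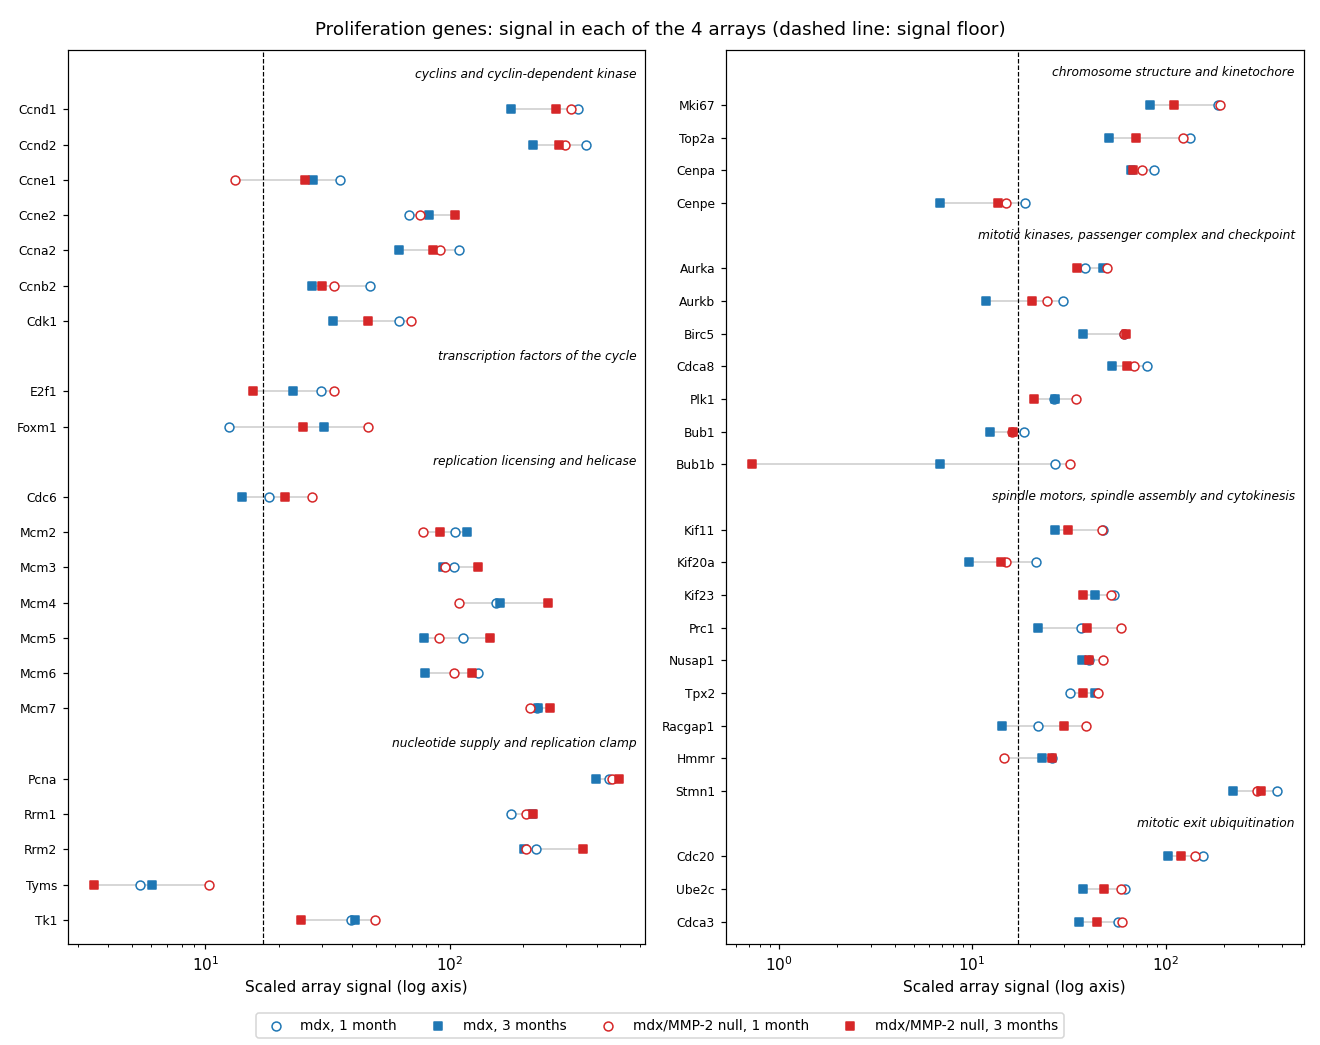
Scaled signal (log axis) of the 44 measured proliferation genes in the 4 arrays, 1 symbol per array, ordered by role. Open circles are arrays at 1 month and filled squares arrays at 3 months, blue for mdx and red for mdx/MMP-2 null. The dashed line is the floor of 17.3, and most mitosis genes have their lowest signal in the mdx array at 3 months.

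In mdx muscle, proliferation genes were lower at 3 months than at 1 month. Of 39 compared, 17 were lower by at least 1.5-fold, or 43.6%, against 7.86% of all 11598 genes, and 1, Foxm1, was higher by at least 1.5-fold, against 6.3% of all genes. Their median log2 difference was -0.38, and that of all genes 0.0. Averaging all probe sets of a gene gave 8 lower and 0 higher. The mdx array at 3 months held the lowest signal of the 4 arrays for 25 of the 39 genes and the highest for 1. These counts were not made over all genes. In bulk muscle, fewer dividing cells and less RNA per cell cannot be told apart.

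Among the genes of chromosome structure, Mki67 encodes the Ki-67 protein that coats mitotic chromosomes and is the common marker of dividing cells. Its signals were 186 in mdx at 1 month, 83.2 in mdx at 3 months, and 190 and 110 in mdx/MMP-2 null at the same ages. Both arrays at 1 month were above both at 3 months, and Mki67 was 2.23-fold lower at 3 months in mdx. Top2a, the topoisomerase that untangles sister chromosomes, had signals of 134 and 51.2 in mdx at 1 and 3 months and of 122 and 70.2 in mdx/MMP-2 null. It was 2.61-fold lower at 3 months in mdx, and only Top2a and Mki67 of the 39 genes passed 2-fold in that comparison, where 1.72% of all genes were lower by 2-fold. A second Top2a probe set near the floor (18.4 and 19.7 in mdx) did not show this. Cenpa, the histone H3 variant of centromeres, differed less, with 87.0 and 66.2 in mdx.

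Cyclins showed the same direction in mdx. Ccnd1 and Ccnd2, the D cyclins that start a cycle in response to growth factors, were 1.89-fold and 1.65-fold lower at 3 months, with signals of 337 and 178 for Ccnd1 and of 363 and 219 for Ccnd2. Ccna2, cyclin A2 of DNA synthesis and early mitosis, went from 109 to 62.0 and was 1.77-fold lower. Ccnb2, a B cyclin, was 1.74-fold lower (47.4 and 27.3), and its kinase Cdk1 was 1.87-fold lower (62.2 and 33.2). The E cyclins, which act with Cdk2 at the entry into DNA synthesis, did not pass 1.5-fold: Ccne1 had signals of 35.6 and 27.6, and Ccne2 68.3 and 82.5. Thus 5 of the 7 compared genes of this role were lower by at least 1.5-fold, with a role median of -0.80 on the log2 scale.

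Genes of mitotic control were lower in mdx with exceptions. In the chromosomal passenger complex, which corrects faulty spindle attachments, Birc5 (survivin) was 1.64-fold lower at 3 months (61.1 and 37.2), Cdca8 (borealin) 1.52-fold lower (80.0 and 52.7) and the kinase Aurkb at least 1.71-fold lower (29.6 and 11.7). Aurka, the Aurora kinase of spindle poles, lay the other way, with 38.2 and 47.3, and Plk1, a kinase of mitotic entry, had 26.6 in both. Near the floor, the signals of Aurka, Plk1 and Aurkb carry little precision, and Aurkb at 3 months lay under it. The same holds for other genes with signals this faint, such as Ccnb2 above and Kif11 and Prc1 below. Cdc20, which activates the anaphase-promoting complex, was 1.5-fold lower (155 and 103), Ube2c, the conjugating enzyme of that complex, 1.65-fold lower (61.3 and 37.2) and Cdca3, a protein of mitotic entry, 1.59-fold lower (56.5 and 35.6).

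Of the spindle and cytokinesis genes, Kif11, the motor that pushes spindle poles apart, was 1.77-fold lower at 3 months in mdx (47.6 and 26.9). Stmn1, which destabilises microtubules and is also made by other immature cells, was 1.7-fold lower (377 and 222). Prc1, a bundler of the central spindle, was 1.67-fold lower (36.5 and 21.9). Kif23 (53.8 and 42.9), Nusap1 (40.2 and 36.8) and Hmmr (25.9 and 23.0), whose products serve the spindle and cell cleavage, were lower by less than 1.5-fold. Racgap1, which also serves cell cleavage, was at least 1.26-fold lower (21.8 and 14.3), and another Racgap1 probe set gave 37.4 and 12.3. Both Racgap1 signals at 3 months lay under the floor. Tpx2, an activator of Aurka, was higher, with 32.2 and 43.3.

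Replication genes differed less with age in mdx. Among the helicase and its loader, 1 of 7 was lower by at least 1.5-fold, and the role median was -0.07. That gene was Mcm6, with signals of 130 and 79.3. Mcm2 (106 and 118), Mcm3 (104 and 94.1), Mcm4 (155 and 161) and Mcm7 (228 and 230) differed by less than 0.2 on the log2 scale, and Mcm5 was 1.45-fold lower (114 and 78.7). Cdc6, which loads the helicase, lay at the floor (18.2 and 14.1). Pcna, the sliding clamp of DNA polymerases, had 450 and 399, and Rrm1 and Rrm2, the subunits of ribonucleotide reductase, 178 and 218, and 227 and 201. Tk1, thymidine kinase, had 39.6 and 41.1, so that no gene of nucleotide supply passed 1.5-fold in mdx. Other probe sets were lower with age for Mcm4 (140 and 104), Rrm2 (108 and 83.9) and Mcm5 (41.9 and 13.6), so the near-level values rest on the probe sets used. The Mcm5 signal of 13.6 lay under the floor, so its log2 difference of -1.27 is a lower bound in size.

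**Figure D2:**
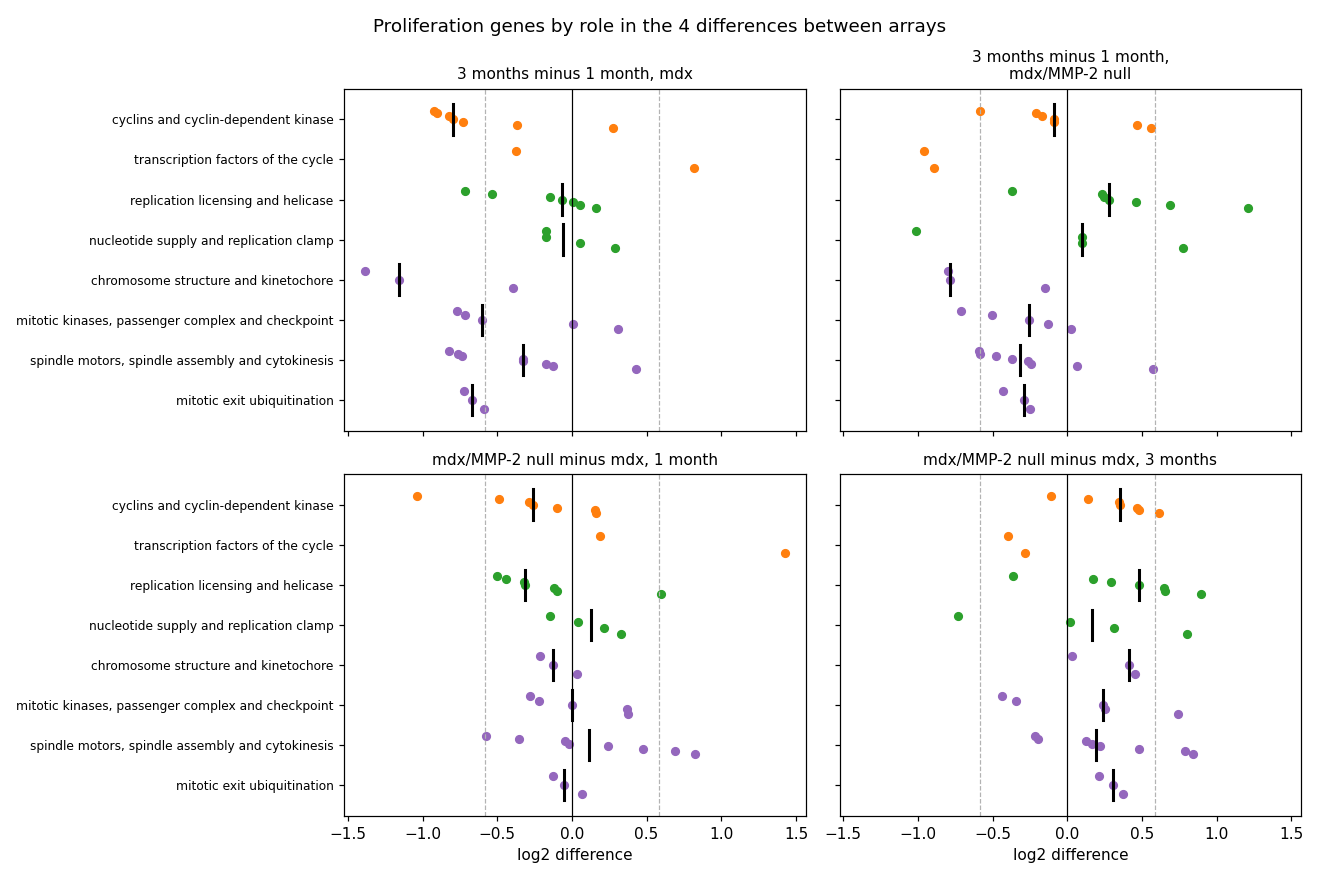
Log2 differences of the 39 compared genes (1 dot per gene) by role in the 4 differences between arrays, with 1 array per group. Black bars are role medians where a role has at least 3 genes, and dashed lines mark 1.5-fold. In mdx the medians of the cyclin and mitosis roles lie to the left of 0 and those of the replication roles near 0, while at 3 months the medians of all 7 such roles are higher in mdx/MMP-2 null.

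In mdx/MMP-2 null muscle the age difference was smaller and mixed. Of the 39 genes, 8 were lower at 3 months by at least 1.5-fold, or 20.5%, against 7.1% of all genes, and 3 were higher, or 7.69%, against 8.02%. Median scaling of the arrays, which moved the median of all genes to 0.22, gave 5 lower and 7 higher, and scaling to the trimmed mean gave 14 lower and 3 higher. The median log2 difference was -0.21, beside 0.02 for all genes. Among the 16 genes with a mean signal at or above 84.8, the 75th percentile, the median stood 0.08 above that of all genes, so this median has no settled direction.

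Mitosis markers were lower with age in this genotype too. Mki67 was 1.72-fold lower at 3 months and Top2a 1.74-fold lower, and Kif11 (47.1 and 31.3) and Prc1 (58.8 and 39.2) were both 1.5-fold lower or just past it. Only these 4 of the 39 members were lower by at least 1.5-fold in both genotypes, as were 239 of all 11598 genes. The other Prc1 probe set did not show this in mdx/MMP-2 null (17.2 and 18.0). Cdk1 had 69.4 and 46.3, just under 1.5-fold. Kif11 was faint, and so were the other genes past 1.5-fold downward: Tk1 (49.7 and 24.7), Plk1 (34.3 and 21.0), E2f1 (33.8 and 15.6) and Foxm1 (46.6 and 25.1). E2f1 encodes the factor of DNA synthesis genes, and another E2f1 probe set lay the opposite way (17.9 and 25.5).

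Several cyclins and genes of the passenger complex differed little with age in mdx/MMP-2 null. Ccnd1 had signals of 314 and 272, Ccnd2 298 and 280, Ccna2 91.5 and 85.8, and Ccnb2 33.8 and 30.0. The E cyclins were higher at 3 months, Ccne1 with 13.2 and 25.6, at least 1.48-fold, and Ccne2 with 76.0 and 105, or 1.38-fold. Of the passenger complex, Birc5 had 61.1 and 62.1, Cdca8 68.6 and 62.8, and Aurkb 24.4 and 20.4. Stmn1 had 295 and 309. No cyclin passed 1.5-fold downward here, where 4 did in mdx.

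Replication genes were higher at 3 months in mdx/MMP-2 null in 9 of 11 cases, where 6037 of all 11598 genes were higher. Of the 11, 3 were higher by at least 1.5-fold, or 27.3%, against 8.02% of all genes. Mcm4 went from 109 to 253 and was 2.32-fold higher, Rrm2 from 205 to 351 and was 1.71-fold higher, and Mcm5 from 90.9 to 146 and was 1.61-fold higher. Mcm3 had 95.6 and 131, Mcm6 105 and 124, and Mcm7 213 and 259. For 7 of the 11 replication genes, but for 1 of the 19 mitosis genes, the highest of the 4 signals was that of mdx/MMP-2 null at 3 months. For the mitosis genes, the highest signal was in an array at 1 month, 10 times in mdx and 8 times in mdx/MMP-2 null. Such counts of the highest array were not made over all genes.

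For the 3 replication genes past 1.5-fold, the probe sets used are of the _x_at class, which can hybridise to related sequences. Their other probe sets gave smaller age differences in mdx/MMP-2 null: 99.3 and 142 for Mcm4, 132 and 149 for Rrm2 and 31.4 in both arrays for Mcm5. Without the _x_at and _s_at classes no member was higher by 1.5-fold with age in this genotype. The direction against mdx at 3 months was the same in these probe sets, with 142 against 104 for Mcm4, 149 against 83.9 for Rrm2 and 31.4 against 13.6 for Mcm5. The Mcm5 signal of 13.6 lay under the floor.

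**Figure D3:**
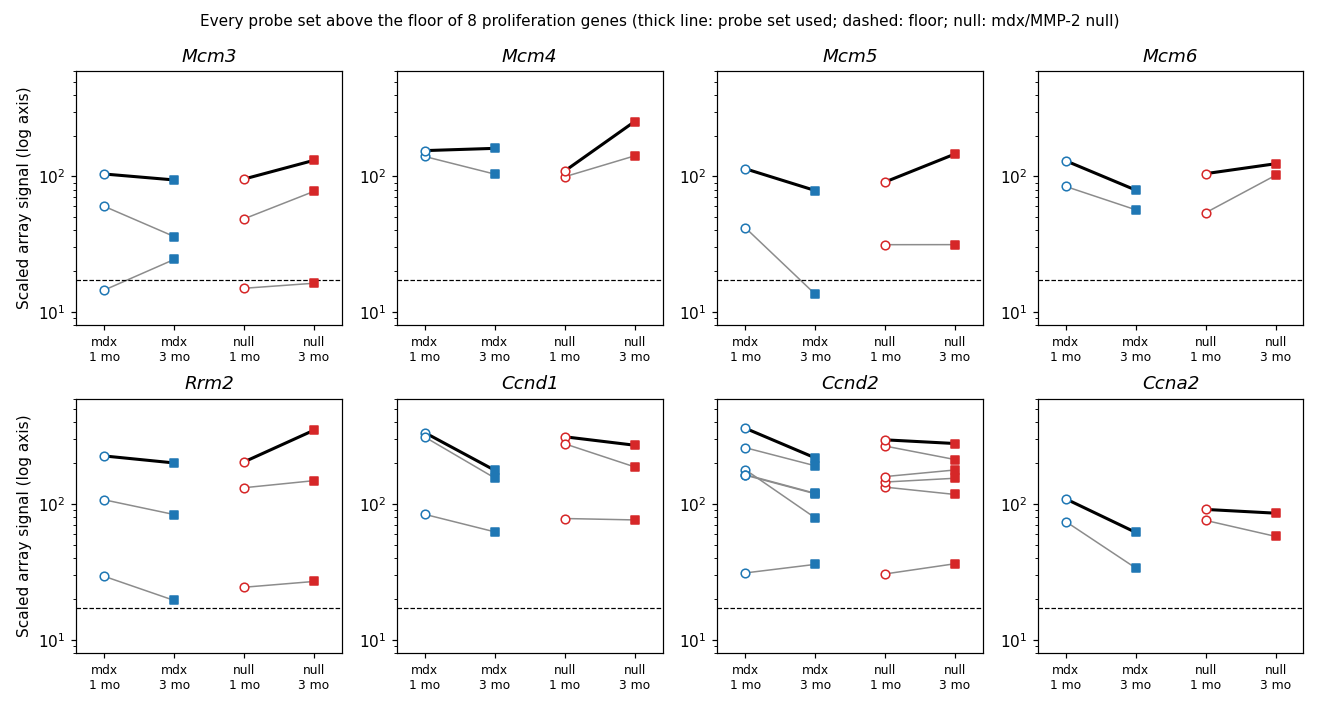
Scaled signal (log axis) of every probe set above the floor for 8 genes in the 4 arrays, with a line joining both ages of a genotype. The thick line is the probe set used, and the dashed line the floor of 17.3. For Mcm4, Mcm5, Mcm6 and Rrm2 each probe set is higher in mdx/MMP-2 null than in mdx at 3 months.

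The age differences of both genotypes come from separate arrays and can be set side by side. For 13 of the 39 genes, or 33.3%, the log2 age difference was higher in mdx/MMP-2 null than in mdx by at least 1.5-fold, against 11.1% of all genes. In order of size these were Mcm5, Mcm4, Mcm6, Rrm2, Ccne1, Stmn1, Hmmr, Birc5, Ccna2, Ccnd1, Ccnd2, Ccnb2 and Mcm3. For 6 genes, or 15.4%, it was lower by as much, against 7.85%: Foxm1, Tk1, Aurka, Plk1, Tpx2 and E2f1. All 6 had a signal under 50 in each of the 4 arrays, and so did Ccne1, Hmmr and Ccnb2 among the 13. Ccne1 and Hmmr of the 13, and Foxm1 and E2f1 of the 6, each had 1 array under the floor. This contrast uses 1 array per group and was not tested.

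**Figure D4:**
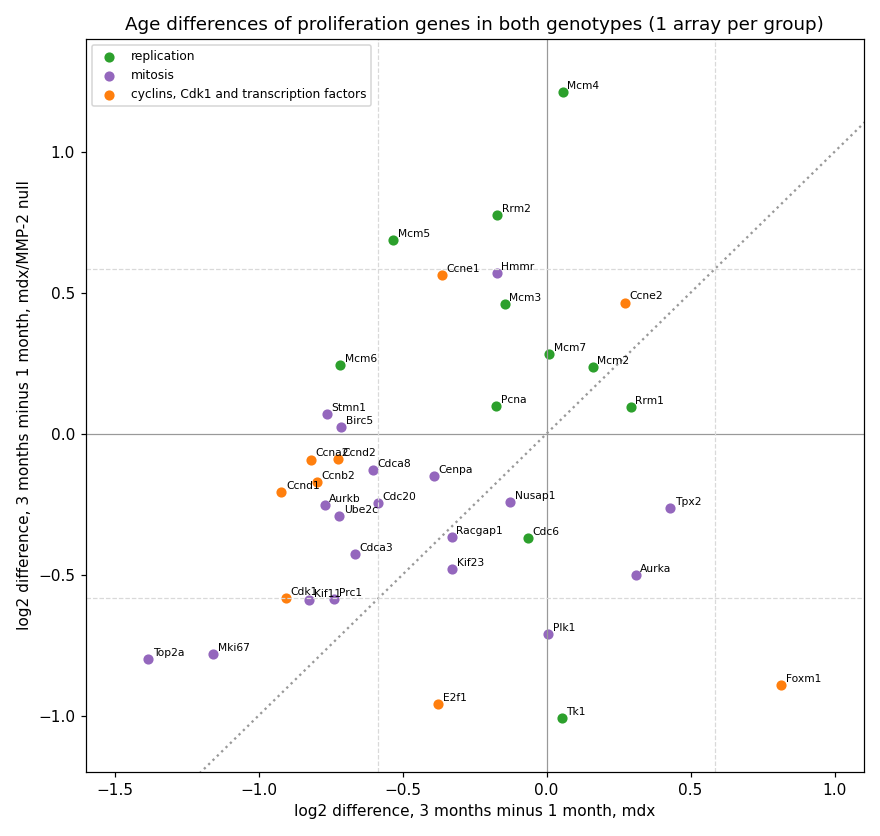
Log2 difference between 3 months and 1 month in mdx (x axis) and in mdx/MMP-2 null (y axis) for the 39 compared genes, each from 1 array per group. The dotted line marks equal differences, and dashed lines 1.5-fold. Top2a and Mki67 are low on both axes, Ccnd1, Ccnd2, Ccna2 and Ccnb2 lie at the left near 0 on the y axis, and Mcm4, Rrm2 and Mcm5 lie at the top.

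At 1 month the median difference of the members between genotypes was small. Of the 39 genes, 4 were at least 1.5-fold higher in mdx/MMP-2 null, or 10.3%, against 3.61% of all genes, and 1 was lower, against 3.83%. The median log2 difference was -0.05, beside 0.0 for all genes. Mki67 (190 against 186), Top2a (122 against 134), Cdk1 (69.4 against 62.2) and Birc5 (61.1 in both) were near equal. Those past 1.5-fold were faint: Foxm1, the factor of mitotic genes (46.6 against 12.5), Racgap1 (38.6 against 21.8), Prc1 (58.8 against 36.5) and Cdc6 (27.5 against 18.2) were higher, and Ccne1 (13.2 against 35.6) at least 2.05-fold lower. For Racgap1 and Prc1 another probe set lay the opposite way, with 25.7 against 37.4 and 17.2 against 22.8. The helicase genes had a median of -0.32, with 6 of 7 lower in mdx/MMP-2 null but none by 1.5-fold. Of all 11598 genes, 5847 were lower.

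At 3 months more members were higher in mdx/MMP-2 null. Of the 39 genes, 30 had the higher signal there, as did 5727 of all 11598 genes. Of the 39, 8 were higher by at least 1.5-fold, or 20.5%, against 6.49% of all genes. Only Tk1 was lower by as much (24.7 against 41.1), against 3.41% of all genes. The median log2 difference was 0.29, beside 0.0 for all genes. With the deposited signals left unscaled, where the median of all genes moved to 0.44, 26 members were higher and 0 lower by 1.5-fold. The distance of the members' median from that of all genes was 0.29 there too. Averaging all probe sets of a gene gave 3 higher.

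The members past 1.5-fold came from several roles, 3 of them from the helicase. Mcm5 was 1.86-fold higher in mdx/MMP-2 null at 3 months (146 against 78.7), Rrm2 1.74-fold (351 against 201), Mcm4 1.57-fold (253 against 161) and Mcm6 1.56-fold (124 against 79.3). Mcm3 was 1.4-fold higher (131 against 94.1), Pcna 1.24-fold (495 against 399) and Mcm7 1.13-fold (259 against 230). Mcm2 lay the other way, with 91.6 against 118, and Rrm1 was level (221 against 218). Ccnd1 was 1.53-fold higher (272 against 178), Birc5 1.67-fold (62.1 against 37.2), Prc1 1.79-fold (39.2 against 21.9) and Racgap1, the partner of Kif23 in cell cleavage, at least 1.73-fold (29.9 against 14.3). For Prc1, its other probe set gave 18.0 against 19.0. Mki67 (110 against 83.2), Top2a (70.2 against 51.2), Ccna2 (85.8 against 62.0), Cdk1 (46.3 against 33.2) and Ube2c (48.2 against 37.2) were higher by less than 1.5-fold.

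The 5 measured genes with a mean signal under the floor were Tyms, Cenpe, Bub1, Bub1b and Kif20a. Tyms, thymidylate synthase, gave 5.38 and 6.05 in mdx at 1 and 3 months and 10.4 and 3.5 in mdx/MMP-2 null. Bub1b, a kinase-like protein of the spindle checkpoint, gave 26.9 and 6.83 in mdx and 32.1 and 0.729 in mdx/MMP-2 null, so both arrays at 1 month were above the floor and both at 3 months below it. The checkpoint kinase Bub1 gave 18.4 and 12.3, and 16.1 and 16.3. The kinetochore motor Cenpe gave 18.7 and 6.8, and 15.0 and 13.5, and Kif20a, a motor of cell cleavage, 21.4 and 9.6, and 14.9 and 14.1. No level can be ranked below the floor.

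An additive model of age and genotype over the 4 arrays gave the one test this design allows, with 1 residual degree of freedom per gene. Without replicates, it takes the interaction of age and genotype, the gap between both age differences, as its error. Its p-values and standard errors therefore do not measure the spread between animals or between arrays of a group. For age, 0 members and 0 of all genes passed an adjusted p of 0.05 (limma, Benjamini-Hochberg over 11598 genes), and the smallest adjusted p of a member was 0.286. Without adjustment, 8 of 39 members had a p under 0.05, or 20.5%, all lower at 3 months, against 7.34% of all genes: Mki67, Top2a, Cdk1, Kif11, Prc1, Cdca3, E2f1 and Ube2c. The age effect in this limma fit was -0.97 with a standard error of 0.18 for Mki67 and -1.09 with 0.21 for Top2a. With a variance prior that follows the signal, limma called 310 genes for age, 2.67% of all genes, with 182 of them lower, or 1.57%. Of the members it called Mki67 (adjusted p = 0.0239) and Top2a (adjusted p = 0.0299). For genotype, limma called 0 genes with the constant prior, with 2 of 39 members (Racgap1 and Prc1, both higher) and 4.53% of all genes at an unadjusted p under 0.05.

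Both arrays at 3 months lay below both arrays at 1 month for 17 of the 39 genes, or 43.6%, against 24.0% of all genes. They were Ccnd1, Ccnd2, Ccna2, Ccnb2, Cdk1, E2f1, Mki67, Top2a, Cenpa, Aurkb, Cdca8, Kif11, Kif23, Nusap1, Cdc20, Ube2c and Cdca3. None is a replication gene. Both arrays at 3 months lay above both at 1 month for Ccne2, Mcm4, Mcm7 and Rrm1, 10.3% against 26.2% of all genes. By genotype, both mdx/MMP-2 null arrays were above both mdx arrays for 5 members, 12.8% against 12.7% of all genes, a share near the background, and both were below for 2 members (Ccne1 and Mcm2), 5.13% against 12.1%.

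Agreement between probe sets of one gene gives a measure of the spread between probe sets. They share the RNA and the array, so it does not measure spread between arrays. Over 5005 genes with at least 2 probe sets above the floor, the log2 age difference in mdx differed between both brightest probe sets by a median of 0.3, and by 0.82 at the 90th percentile. The genotype difference at 3 months differed by 0.23 and 0.69. A difference of 1.5-fold lies inside both 90th percentiles. Of 18 members with several probe sets above the floor, 9 were called at 1.5-fold with age in mdx. For Ccna2, Ccnd1, Ccnd2 and Cdca8 another probe set also passed 1.5-fold, and for Ccnd2 and Top2a one lay the opposite way. At 3 months 7 of the 18 were called between genotypes. For Mcm5, Mcm6, Racgap1 and Rrm2 another probe set also passed, and for Prc1 one lay the opposite way. With age in mdx/MMP-2 null 6 were called, and 0 had another probe set past 1.5-fold, with one the opposite way for E2f1 and Prc1. Between genotypes at 1 month 2 were called, Prc1 and Racgap1, and for both another probe set lay the opposite way.

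Other genes of the same programme were read from lists not drawn from the 45. Of 30 further DNA replication genes, 26 were compared. At 3 months 7 of them were at least 1.5-fold higher in mdx/MMP-2 null, or 26.9%, against 6.49% of all genes, and 0 were lower. They were Rfc5, a clamp loader subunit (44.9 against 23.2), Cdt1, which loads the helicase (191 against 104), Lig1, DNA ligase (61.0 against 35.7), Uhrf1, Fen1, Prim1 and Cdc7. Among them Cdt1, Uhrf1, Fen1, Prim1 and Cdc7 are named after their values were seen. With age in mdx 4 were lower by 1.5-fold (Pole, Gins3, Rfc5 and Lig1), or 15.4% against 7.86% of all genes, and 0 higher, with a median of -0.26. In mdx/MMP-2 null 3 were higher, or 11.5% against 8.02%, and 2 lower, or 7.69% against 7.1%, shares near the background, with a median of 0.1.

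Of 50 further mitosis genes, 37 were compared. With age in mdx 10 were lower by at least 1.5-fold, or 27.0%, against 7.86% of all genes, and 1 was higher, with a median of -0.43. Nuf2, a kinetochore protein, was at least 2.27-fold lower (39.4 and 13.5), Kif4, a chromosome motor, at least 1.87-fold (32.5 and 15.0) and Ect2, which sets the cleavage plane, 1.72-fold (33.0 and 19.1). In mdx/MMP-2 null 1 was lower (Fbxo5, an inhibitor of the anaphase-promoting complex), or 2.7% against 7.1% of all genes, and 3 were higher, or 8.11% against 8.02%, with a median of -0.22. Between genotypes at 3 months 4 were higher in mdx/MMP-2 null, or 10.8% against 6.49%, and 0 lower.

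Brakes of the cycle showed both directions. Cdkn2a, which encodes inhibitors of the cycle, had signals of 12.6 and 87.0 in mdx at 1 and 3 months and of 0.44 and 76.4 in mdx/MMP-2 null. Cdkn1c, an imprinted inhibitor, had 1342 and 396 in mdx and 1774 and 318 in mdx/MMP-2 null. Cdkn2b was higher at 3 months in mdx (28.7 and 69.3) and near level in mdx/MMP-2 null (36.0 and 40.8). Of the 13 genes in this list, 3 were higher by 1.5-fold with age in mdx, or 23.1% against 6.3% of all genes, and 1 was lower, or 7.69% against 7.86%.

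Among the remaining cyclins, kinases and E2F factors, 11 of 12 were compared. E2f8, an E2F-family repressor that itself cycles, had 43.0 and 21.9 in mdx and 50.2 and 46.5 in mdx/MMP-2 null. Cdk6 was 1.58-fold lower with age in mdx (107 and 67.7), and Lin54, a subunit of MuvB, 1.63-fold higher (67.5 and 110). With age in mdx 2 of the 11 were thus lower by 1.5-fold, or 18.2% against 7.86% of all genes, and 1 higher, or 9.09% against 6.3%. At 3 months E2f8 was higher in mdx/MMP-2 null and E2f7, its close relative, lower (22.9 against 35.6), the latter named after its values were seen. Myc had 131 and 98.2 in mdx and 64.3 and 101 in mdx/MMP-2 null.

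Markers of cells that may divide in this tissue differed between the same arrays. With age in mdx, 5754 of all 11598 genes were lower, 7.86% by at least 1.5-fold. In mdx/MMP-2 null 5517 were lower, 7.1% by as much. Of 10 satellite cell and myoblast markers, 8 were lower in mdx, 5 of them by 1.5-fold, with Myog, a factor of muscle differentiation, at 648 and 315. In mdx/MMP-2 null 6 were lower, 2 of them by 1.5-fold, and 1 was higher by as much. The summed signal of the 10, most of it Des, was 9542 and 9766 in mdx and 9234 and 10190 in mdx/MMP-2 null. All 6 markers of regenerating fibres were lower in mdx, 5 of them by 1.5-fold, with a median log2 difference of -1.05. In mdx/MMP-2 null 5 of the 6 were lower, 3 of them by 1.5-fold, with a median of -0.6. The summed signal of the 6, most of it Actc1, was 16700 and 10620 in mdx and 16620 and 10090 in mdx/MMP-2 null. Endothelial markers were lower in 6 of 7 cases in mdx (1965 and 1328) and in 7 of 7 in mdx/MMP-2 null (2132 and 1296), and fibroblast markers in 7 of 8 and 6 of 8 (39870 and 31470, and 38760 and 33430). Tendon and cartilage markers were lower in 5 of 6 cases in mdx (1379 and 645) and in 3 of 6 in mdx/MMP-2 null (1151 and 819). The part of these cell types, and of the Actb ratio, in the age difference of the members was not tested.

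White blood cell markers differed between genotypes at 3 months. Of all 11598 genes, 5727 were higher in mdx/MMP-2 null at that age, 6.49% by at least 1.5-fold and 149 genes by at least 2-fold. All 13 markers of macrophages and monocytes were higher there, 6 of them by at least 1.5-fold, or 46.2%. Summed signals of the 13 were 9753 and 6984 in mdx at 1 and 3 months and 9253 and 10400 in mdx/MMP-2 null. The 4 compared neutrophil markers of 6 were all at least 2-fold higher at 3 months. Sums over the 6 were 178 and 92.2 in mdx and 201 and 674 in mdx/MMP-2 null, and Ltf was under the floor in all arrays. Satellite cell markers were higher in 9 of 10 cases, none by 1.5-fold. Of the T, NK and B cell markers, 7 of 8 measured lay under the floor in all 4 arrays, Cd3e and Cd79a among them, with summed signals from 61.6 to 96.8. Of the erythroid markers, 2 of 3 did, with sums from 33.5 to 50.8. A link between the higher macrophage and neutrophil markers and the higher replication genes at 3 months was not tested.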

How the data were processed

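Total RNA of 4 tibialis anterior samples, 1 per group, was measured on 4 arrays. The authors deposited 1 linear intensity per probe set. Per the submitters' processing notes, MAS5 and Affymetrix Expression Console were used. Their versions and any target signal are not given in the sources used here, and the trimmed means differ between arrays. Of 45101 probe sets, 64 controls were left out and 34945 carried 1 gene symbol, 932 several and 9160 none here. Of the single-symbol probe sets, 34741 matched RefSeq's mouse genes by identifier, with 0 symbols changed.

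Arrays were quantile scaled (limma 3.58.1, R 4.3.3; tables in Python 3.11.15 with pandas 2.3.3), raised to the floor (50th percentile, 17.3) and put on the log2 scale. Genes were compared where the mean scaled signal reached the floor. A difference was counted from 1.5-fold, and folds to arrays at the floor are lower bounds. The additive fit used lmFit and eBayes. On simulated data with the real gene means and 11598 genes it recovered 12 of 100 genes with an age effect of 1 on the log2 scale and 100 of 100 with an effect of 3, with 14 false calls.

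The members, lists and tests were chosen with earlier results of these data known, so no list is independent evidence. All 45 members could be named, with up to 6 genes of a pathway list by the size of their age difference past 1.5-fold. Alternatives covered scaling, floor, filter, probe set choice, fold threshold and variance prior. The number of arrays limits the precision.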

Additional observations from a re-analysis of the deposited data

Results flagged for a closer look

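Foxm1, the transcription factor of mitotic genes, was the member whose age difference passed 1.5-fold in opposite directions in both genotypes. Its log2 difference between 3 months and 1 month was 0.81 in mdx, a lower bound because the mdx signal at 1 month (12.5) lay under the floor, and -0.89 in mdx/MMP-2 null. The difference between genotypes was not tested. The signals were 12.5, 30.5, 46.6 and 25.1 in mdx at 1 and 3 months and mdx/MMP-2 null at 1 and 3 months, and the other 3 probe sets of Foxm1 lay under the floor in all arrays.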

How the results depend on the processing

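No paired analysis was possible because each group has 1 array and the labels give no replicate numbers; leaving out a replicate could not be done either. Signals near the floor limit what can be read, and the causes of the changes below were not tested. Counts of members past 1.5-fold, with 4 higher and 1 lower between genotypes at 1 month, 8 and 1 at 3 months, 1 and 17 with age in mdx and 3 and 8 with age in mdx/MMP-2 null, depended on the settings; of 43 member values past 1.5-fold, 25 belong to genes that at least 1 of the 11 alternatives no longer compared, and 4 were compared and kept direction and threshold under all 11 (17 where only the alternatives that still compared the gene are counted). With the floor at the 60th percentile, 1 was higher and 0 lower at 1 month, 0 lower at 3 months, 0 higher in mdx (median relative to all genes -0.533) and 5 lower in mdx/MMP-2 null, and limma called 1 gene for age and 1 for genotype. With the floor at the 40th percentile, 2 were lower at 1 month and 5 higher in mdx/MMP-2 null, and the median in mdx was -0.578. With the pseudocount of 4.34 in place of the floor, 2 were lower at 1 month and 5 higher with age in mdx/MMP-2 null. For genes with a mean signal at or above the 75th percentile, 0 were higher and 0 lower at 1 month, 5 and 0 at 3 months (median 0.478), 0 and 8 in mdx (median -0.566) and 2 lower in mdx/MMP-2 null, whose median turned to 0.083; limma called 47 genes for age and 1 for genotype. With all probe sets averaged, 1 was higher and 0 lower at 1 month, 3 higher at 3 months, 0 and 8 in mdx, and 1 and 3 in mdx/MMP-2 null. Without _x_at and _s_at probe sets, 0 were lower at 1 month and 0 higher in mdx/MMP-2 null, and Prc1 turned to -0.396 and -0.08 between genotypes at 1 and 3 months and to 0.051 with age in mdx/MMP-2 null. At 2-fold, 1 was higher at 1 month, 0 higher and 0 lower at 3 months, 0 and 2 in mdx and 1 and 1 in mdx/MMP-2 null, and at 3-fold all 8 counts were 0. Median scaling gave 3 lower at 1 month and 7 higher and 5 lower in mdx/MMP-2 null, with 15 genes called by limma for age and 1 for genotype. Cyclic loess gave 2 lower at 1 month and 5 higher in mdx/MMP-2 null. Scaling to the 2% trimmed mean gave 2 lower at 1 month and 14 lower in mdx/MMP-2 null, with 1 gene called for age and 1 for genotype. Without scaling, 26 were higher and 0 lower at 3 months, 0 higher in mdx and 8 higher and 4 lower in mdx/MMP-2 null, and limma called 124 genes for age, 1 of them a member, and 70 for genotype. The prior that follows the signal gave 310 genes for age, 2 of them members, and 2 for genotype.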
